A study of Mus musculus with 4 samples.

Results

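The genes described here are 47 genes that act in G2 and mitosis, read on microarrays of sorted mouse mesoderm. They were chosen by name with earlier results of these data known. Their counts beside all genes are therefore descriptions and not independent support. The 47 comprise kinases and cyclins of mitotic entry, spindle checkpoint genes, kinetochore and centromere proteins and the chromosomal passenger complex. Kinesins, spindle proteins, cytokinesis genes, condensin subunits and mitotic chromosome proteins make up the rest. Each was taken from the probe sets that the platform annotation assigns to that gene symbol alone, and where a gene had several, the probe set with the highest mean over the 4 arrays was used. All 47 were measured, among 18193 genes in all. The arrays hold total RNA of embryonic stem cells of the TT2 line, heterozygous for a Venus fluorescent protein knocked into Etv2, after 5 days of differentiation on the OP9 stromal line. Etv2 encodes an ETS transcription factor needed for blood and vessel formation, and Flk-1, encoded by Kdr, is a VEGF receptor of mesoderm that can form both. Flk-1+ cells were sorted by Venus fluorescence, giving 2 arrays of Etv2-Venus negative and 2 of Etv2-Venus positive cells. All 4 arrays therefore carry the knock-in on 1 allele, and the population without Venus is not a culture that lacks Etv2. Whether each array stands for its own culture is not said in the labels, and the p-values therefore speak only to how far these arrays scatter, which could be technical.

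The label of the sort was read first. Etv2 measured 12.03 and 11.87 log2 units in the negative cells, against 12.64 and 12.41 in the positive, and Kdr measured 12.51 and 12.68 against 12.64 and 12.81. Of 16 endothelial markers, 15 had both positive arrays above both negative arrays, with a median difference of 1.04 on the log2 scale. Of 11 nascent mesoderm markers, 10 lay the other way, with a median of -1.33. The stroma that shares the culture was followed through 22 measured markers, whose median difference was -0.13, with 0 apart in the higher direction and 5 in the lower. Their summed linear signal ran from 22076 to 24777 without Venus and from 18991 to 22476 with it. Fn1 weighed most in that sum, at 14.07 and 13.98 log2 units against 13.89 and 13.71. Array 1 read above array 2 in both populations, by a median of 0.43 over these markers without Venus and 0.50 with it. Col3a1 measured 7.86 and 5.90 against 7.73 and 5.39, while Sparc went the other way, 11.38 and 11.75 against 11.48 and 11.85. Of 7 primitive erythroid markers, 1 had arrays apart in the higher direction (Hba-x, 0.27) and 2 in the lower (Hbb-bh1, -0.41, and Klf1, -0.18), with a median of -0.01. Over all genes, 22.4% had arrays apart in the higher direction and 17% in the lower. RNA integrity was read from 4 control genes with probe sets at both transcript ends. The 3' minus 5' difference of Tfrc was 1.46 and 0.85 for the negative cells, against 1.91 and 1.21 for the positive, and that of Pcx lay the other way, 1.06 and 0.85 against 0.92 and 0.58. Actb gave 0.41 and 0.40 against 0.47 and 0.51, and Gapdh stayed between -0.04 and 0. What part the stroma or the RNA quality has in the differences below was not tested.

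Cells that have replicated their DNA prepare for division in G2 by accumulating cyclins, mitotic kinases and the parts of the spindle. Cdk1 with its cyclins starts mitosis, the spindle checkpoint holds chromosomes until their kinetochores are attached, and the anaphase-promoting complex then destroys cyclins and securin so that the chromatids part and the cell divides. Many of these genes are silent in resting and G1 cells and are transcribed together late in the cycle, so their transcripts are widely read as a sign of dividing cells. In RNA from a population, more cells in G2 or mitosis and more transcript per cell cannot be told apart.

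The fitted difference was above 0, that is higher in the Etv2-Venus positive cells, for all 47 genes, against 52.9% of all genes, with a median of 0.82 log2 units, or 1.76-fold. The median over all genes was 0.01. The differences ran from 0.06 for the cyclin Ccnb2 to 1.45 for Prc1, and 10 genes were at least 2-fold higher, where 0.599% of all genes were. For 45 of the 47, both positive arrays lay above both negative arrays, against 22.4% of all genes. The distance between the nearest arrays of the populations was between 0.17 and 1.15 log2 units for those 45. Ccnb2 and Fbxo5 were the exceptions, with arrays that overlapped. Of the 47 genes, 40 stood among the 500 largest positive differences of the 18193 genes.

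In limma, with p-values adjusted by the Benjamini-Hochberg method over all genes, 0 of the 47 genes passed a threshold of 0.05, and neither did any other gene (0% of 18193). The smallest adjusted p among the 47 was 0.0670. At an unadjusted p under 0.05, 45 of the 47 were higher and 0 lower, where 7.07% of all genes were higher and 4.64% lower. When limma's variance prior followed the mean, with robust estimation, 12 of the 47 passed the adjusted threshold as higher, against 0.445% of all genes. Those 12 were Aurka, Cdk1, Ube2c, Cenpe, Incenp, Kif18a, Kif20b, Kif23, Hmmr, Ckap2, Ckap2l and Racgap1. An exact permutation test of a single gene cannot reach the threshold with 2 arrays against 2, where its smallest two-sided p is 0.333.

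**Figure D1:**
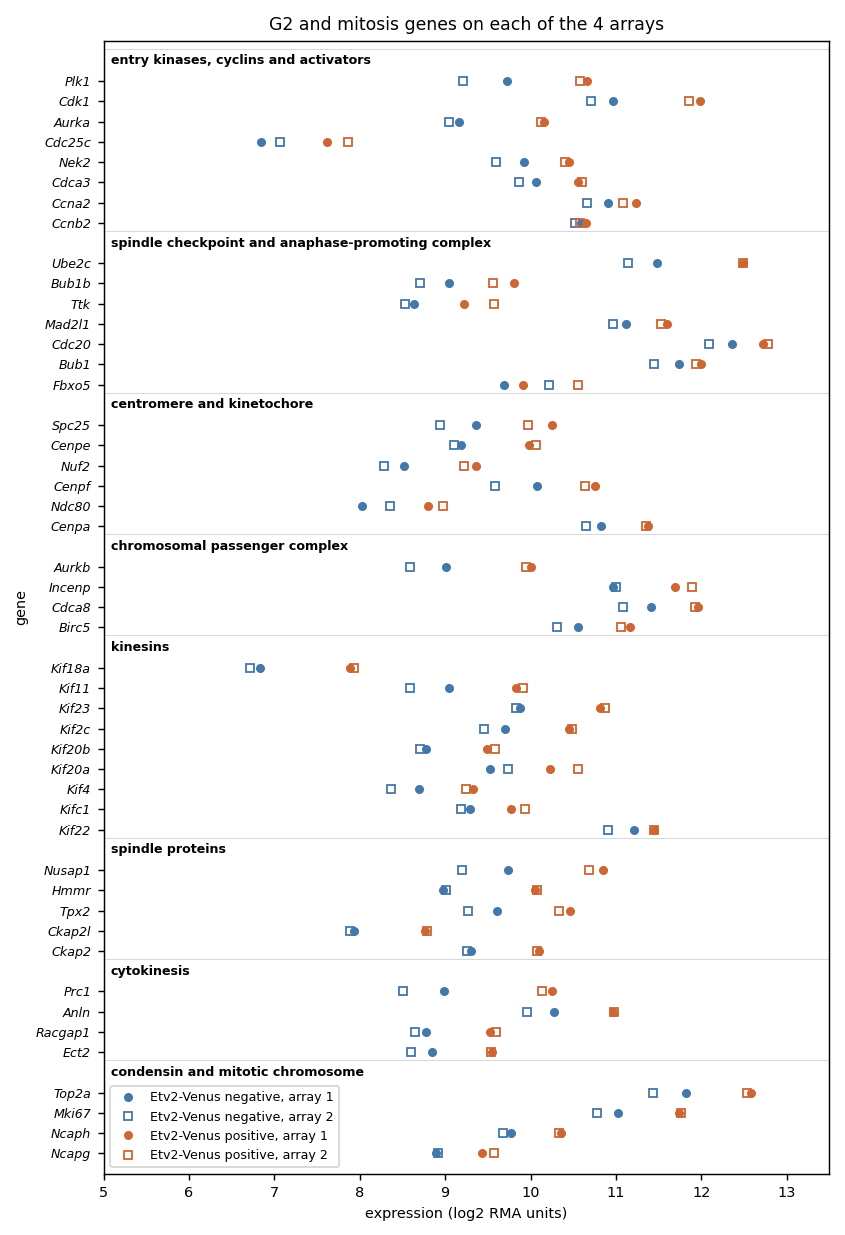
Expression of the 47 genes on each array in log2 RMA units (x axis), 1 line per gene (y axis), grouped by role; blue marks the Etv2-Venus negative and orange the positive arrays, filled circles array 1 and open squares array 2. Orange symbols lie to the right of blue ones for 45 genes, while Ccnb2 and Fbxo5 overlap.

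The gap was not carried by a single array. Comparing only the arrays numbered 1, the median difference over the 47 genes was 0.73, and comparing only those numbered 2, it was 0.90. Between the positive arrays, array 1 minus array 2 had a median of 0.01 over these genes. Between the negative arrays that median was 0.24, with array 1 the higher. These medians are signed, so opposite deviations cancel, and single genes differed by more. Fbxo5, for example, measured 9.91 and 10.56 on the positive arrays. The summed linear signal of the 47 genes was 55712 and 47776 on the arrays of negative cells, against 87035 and 86878 on those of positive cells.

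**Figure D2:**
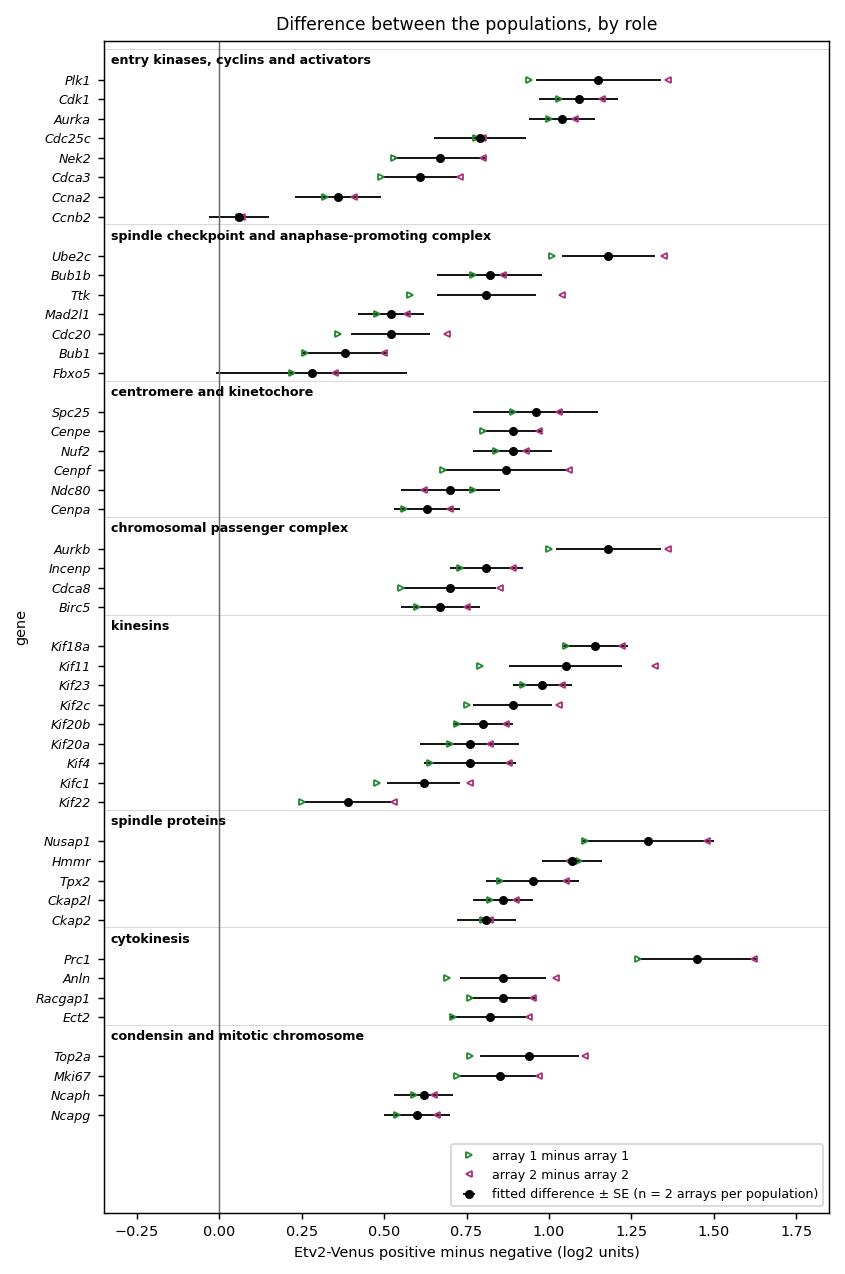
Etv2-Venus positive minus negative in log2 units (x axis) for each gene (y axis), grouped by role; black points and bars are the fitted difference and its standard error from 2 arrays per population, and open triangles compare the arrays of the same number. Every fitted difference lies above 0, and the role medians run from 0.52 for the checkpoint and anaphase-promoting complex to 0.95 for the spindle proteins.

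Among the kinases, cyclins and activators of mitotic entry, all 8 differences were above 0, with a median of 0.73, and 7 of 8 had arrays apart. Aurka, a kinase of centrosome maturation and spindle assembly, measured 9.16 and 9.04 on the arrays of negative cells, against 10.16 and 10.12 on those of positive cells. Its difference was 1.04 (SE 0.10, 2.05-fold, n = 2 arrays per population), with a limma adjusted p of 0.0670, and each population's arrays lay far closer to each other than to the other population. Cdk1, the kinase that starts mitosis, measured 10.96 and 10.71 against 11.98 and 11.86, a difference of 1.09 (SE 0.12; adjusted p = 0.0802). Plk1, which acts at centrosomes, kinetochores and the midzone, measured 9.72 and 9.21 against 10.66 and 10.58, a difference of 1.15 (SE 0.19; adjusted p = 0.119), with the negative arrays further apart than those of Aurka. The phosphatase Cdc25c, which activates Cdk1, differed by 0.79, Nek2, a kinase of centrosome separation, by 0.67 and Cdca3, an adaptor for the destruction of the Cdk1 inhibitor Wee1, by 0.61. Of the cyclins that partner Cdk1, Ccna2 measured 10.91 and 10.66 against 11.23 and 11.08, a difference of 0.36 (SE 0.13; adjusted p = 0.386), with arrays just apart. Ccnb2 measured 10.59 and 10.52 against 10.65 and 10.58, a difference of 0.06 (SE 0.09; adjusted p = 0.883), so its populations could not be separated on these arrays. Ccnb2 has 1 probe set, and its difference ran from 0.02, without array 2 of the negative cells, to 0.10, without array 1 of the negative or array 2 of the positive cells; it was 0.03 without array 1 of the positive cells. A second probe set of Ccna2 gave a difference of 0.70 with arrays apart. Ccnb1, the other B-type cyclin of mitosis, had no probe set assigned to it alone and was not used here.

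The genes of the spindle checkpoint and of the anaphase-promoting complex were the role with the lowest median, 0.52, and 6 of 7 had arrays apart. Ube2c, the ubiquitin-conjugating enzyme that works with the anaphase-promoting complex, measured 11.48 and 11.14 on the negative and 12.49 on both positive arrays, a difference of 1.18 (SE 0.14; adjusted p = 0.0825). Ttk, the kinase Mps1 that starts checkpoint signalling, measured 8.64 and 8.53 against 9.22 and 9.57, a difference of 0.81 (SE 0.15; adjusted p = 0.141). Mad2l1, which holds back Cdc20 while kinetochores are unattached, measured 11.12 and 10.97 against 11.60 and 11.53, a difference of 0.52 (SE 0.10; adjusted p = 0.15). Both checkpoint genes had positive arrays above the negative ones, with the positive arrays of Ttk the less alike. Bub1b, the checkpoint protein BubR1, differed by 0.82, Cdc20, the activator of the anaphase-promoting complex, by 0.52 and the checkpoint kinase Bub1 by 0.38, or 0.23 without array 2 of the negative cells. Fbxo5, the inhibitor Emi1 of the same complex, measured 9.69 and 10.21 against 9.91 and 10.56, a difference of 0.28 (SE 0.29; adjusted p = 0.816). For Fbxo5 the arrays numbered 2 were the higher in both populations, by more than the populations differed, and its difference was 0.02 and 0.54 without negative array 1 and 2, and 0.61 and -0.05 without positive array 1 and 2.

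All 6 centromere and kinetochore genes had arrays apart, with a median of 0.88. Cenpe, a kinesin that links kinetochores to microtubules, measured 9.18 and 9.10 in the negative against 9.98 and 10.06 in the positive cells, a difference of 0.89 (SE 0.09; adjusted p = 0.0698). Nuf2, a subunit of the Ndc80 complex that binds microtubules, measured 8.52 and 8.28 against 9.36 and 9.22, also a difference of 0.89 (SE 0.12; adjusted p = 0.0962). Its partners in that complex, Spc25 and Ndc80, differed by 0.96 and 0.70, so these 3 subunits lay on the same side. Cenpa, the histone H3 variant that marks centromeres, measured 10.82 and 10.65 against 11.38 and 11.35 and had the smallest difference of the role, 0.63 (SE 0.10; adjusted p = 0.118). Cenpf, a large protein of the outer kinetochore, differed by 0.87.

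The chromosomal passenger complex, which corrects faulty attachments and then guides cytokinesis, had all 4 subunits apart and a median of 0.75. Incenp, its scaffold, measured 10.96 and 11 against 11.69 and 11.89, a difference of 0.81 (SE 0.11; adjusted p = 0.0954). Aurkb, its kinase, measured 9.01 and 8.59 against 10.01 and 9.95, a difference of 1.18 (SE 0.16; adjusted p = 0.0960), and a second probe set of Aurkb gave 1.19. The kinase thus had the largest difference of the complex. Other probe sets of Incenp gave 1.06, 0.53, 0.57 and 0.37, so its distance from Aurkb depends on the probe set. Birc5, or survivin, which places the complex on chromosomes, measured 10.56 and 10.31 against 11.16 and 11.06, a difference of 0.67 (SE 0.12; adjusted p = 0.141). Cdca8, or borealin, differed by 0.70.

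All 9 kinesins had arrays apart, with a median of 0.80. Kif18a, which shortens microtubules at the plus end and damps chromosome movement, measured 6.83 and 6.71 in the negative against 7.88 and 7.93 in the positive cells, a difference of 1.14 (SE 0.10, 2.20-fold; adjusted p = 0.0670). Kif23, the motor of the centralspindlin complex in the midzone, measured 9.88 and 9.83 against 10.81 and 10.87, a difference of 0.98 (SE 0.09; adjusted p = 0.0670). Kif20b, a kinesin of cytokinesis, measured 8.78 and 8.71 against 9.49 and 9.58, a difference of 0.80 (SE 0.09; adjusted p = 0.0802). For each of these 3 kinesins, arrays of a population lay far closer together than the populations did. Kif11, or Eg5, which pushes the spindle poles apart, differed by 1.05, the depolymerase Kif2c by 0.89, Kif20a and the chromokinesin Kif4 by 0.76 each, and Kifc1, a minus-end motor that focuses poles, by 0.62. Kif22, a chromokinesin that moves chromosomes towards the spindle equator, measured 11.21 and 10.91 against 11.45 and 11.44 and had the smallest difference, 0.39 (SE 0.13; adjusted p = 0.358). Its other probe sets, looked at after these values were seen, gave 0.99 and 1.05, both with arrays apart, so the size for Kif22 depends on the probe set. Without array 2 of the negative cells the 0.39 became 0.24.

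The 5 spindle proteins had the highest role median, 0.95, and all had arrays apart. Hmmr, a microtubule-associated protein of spindle poles, measured 8.97 and 9.01 in the negative against 10.05 and 10.07 in the positive cells, a difference of 1.07 (SE 0.09, 2.10-fold; adjusted p = 0.0670). Ckap2l, a spindle pole protein, measured 7.93 and 7.88 against 8.76 and 8.79, a difference of 0.86 (SE 0.09; adjusted p = 0.0690). Ckap2, its relative, measured 9.30 and 9.26 against 10.10 and 10.08, a difference of 0.81 (SE 0.09; adjusted p = 0.0698) and the smallest of the role. These 3 genes had the closest replicates of the 5. Nusap1, which bundles spindle microtubules, had a difference of 1.30 (SE 0.20; adjusted p = 0.111), with negative arrays of 9.73 and 9.20 that lay 0.95 or more below the positive ones. Tpx2, which activates Aurka on the spindle, differed by 0.95.

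The cytokinesis genes had a median of 0.86, and all 4 had arrays apart. Prc1, which bundles the antiparallel microtubules of the midzone, measured 8.98 and 8.51 in the negative against 10.25 and 10.13 in the positive cells. Its difference of 1.45 (SE 0.18, 2.73-fold; adjusted p = 0.0879) was the largest of the 47 and ranked 5 among all genes, and its other probe set gave 1.53. Racgap1, the partner of Kif23 in centralspindlin, measured 8.78 and 8.65 against 9.53 and 9.60, a difference of 0.86 (SE 0.10; adjusted p = 0.0802). Ect2, the exchange factor that activates RhoA at the division plane, measured 8.84 and 8.60 against 9.55 and 9.54, a difference of 0.82 (SE 0.12; adjusted p = 0.0962). Anln, the ring scaffold anillin, differed by 0.86. The midzone bundler, both centralspindlin subunits and the RhoA activator thus lay on the same side.

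The condensin subunits and mitotic chromosome proteins had a median of 0.73, and all 4 had arrays apart. Mki67, the Ki-67 antigen that coats mitotic chromosomes, measured 11.02 and 10.78 in the negative against 11.74 and 11.76 in the positive cells, a difference of 0.85 (SE 0.12; adjusted p = 0.0955). Ncaph and Ncapg, subunits of condensin I, measured 9.77 and 9.68 against 10.36 and 10.33, and 8.89 and 8.92 against 9.43 and 9.57. Their differences were 0.62 (SE 0.09; adjusted p = 0.103) and 0.60 (SE 0.10; adjusted p = 0.119). Top2a, the topoisomerase that untangles sister chromatids, measured 11.82 and 11.43 against 12.58 and 12.54, a difference of 0.94 (SE 0.15; adjusted p = 0.119). On these probe sets Ki-67 and topoisomerase differed by more than the condensin subunits, a contrast that was not itself tested. For Top2a it depends on the probe set, as its other ones gave 0.48, with overlapping arrays, and 0.16. The other probe sets of Ncaph and Ncapg gave 0.53 and 0.28.

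The 47 genes have 104 probe sets assigned to them alone, and 57 of these were not used above. Of the 32 unused probe sets whose mean reached 6 log2 units, 32 had a difference above 0, with a median of 0.70, and 24 had arrays apart. Of the 25 dimmer ones, 22 were above 0, with a median of 0.37. Designs that may cross-hybridise, with x or s in the probe set name, stood for 12 of the 47 genes, Aurkb, Incenp, Cdc20 and Kif22 among them, and their median difference was 0.74 against 0.86 for the other genes. When all probe sets of a gene were averaged in place of taking the brightest, the difference moved by over 1.5 times for 9 genes. It became 0.81 for Kif22, and smaller for the other 8: 0.62 for Aurka, 0.55 for Kif18a and Spc25, 0.48 for Kif20b, 0.50 for Kif2c and Racgap1, 0.53 for Top2a and 0.57 for Tpx2. Each of those 8 has at least 1 probe set with a mean under 6, and Kif2c also has one with a mean of 6.32 that gave 0.01.

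**Figure D3:**
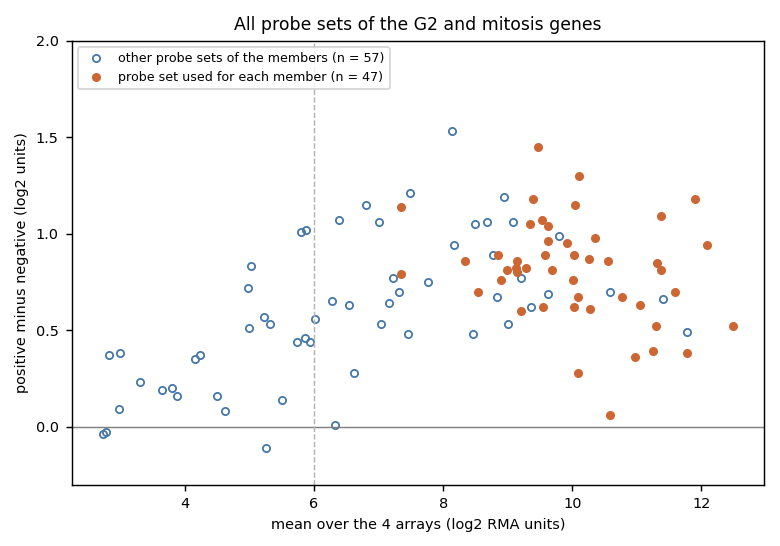
Difference between the populations in log2 units (y axis) against the mean over the 4 arrays in log2 RMA units (x axis) for all 104 probe sets of the 47 genes; orange points are the probe sets used and open blue points the 57 others, and the dashed line marks a mean of 6. All points to the right of the dashed line lie above 0, from 0.01 upwards among the unused probe sets.

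Promoter sequences are shown because the genes differed in the same direction, and genes of G2 and mitosis are known to share promoter elements. The CHR, or cell cycle genes homology region, is bound by LIN54, a subunit of the MuvB complex. With p130 and E2F4, MuvB forms DREAM, which represses these genes in resting cells, and with B-Myb and FoxM1 it activates them in G2. CCAAT boxes, bound by NF-Y, often stand upstream of a CHR. The windows run from 250 bases before to 50 bases after each annotated start, from RefSeq on GRCm38.p6, and were searched on both strands for the letters TTTGAA and CCAAT. The 120 bases before the start are printed on the gene's own strand, in lower case, with capitals for TTTGAA or its complement TTCAAA and for CCAAT or its complement ATTGG. Ube2c, Cdk1, Kif11 and Top2a are the 4 genes of largest difference, among those with 1 window, that hold both sets of letters spaced as described below within those 120 bases. Nusap1 has the largest difference among the genes with 1 window, and Ccnb2 the smallest.
Ube2c, chr2:164769809-164769928, plus strand, difference 1.18: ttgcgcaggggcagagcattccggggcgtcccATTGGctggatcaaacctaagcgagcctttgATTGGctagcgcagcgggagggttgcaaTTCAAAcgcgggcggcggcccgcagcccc
Cdk1, chr10:69352913-69353032, minus strand, difference 1.09: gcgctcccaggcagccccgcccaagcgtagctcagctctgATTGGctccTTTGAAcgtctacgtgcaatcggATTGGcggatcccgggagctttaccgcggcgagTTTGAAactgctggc
Kif11, chr19:37376262-37376381, plus strand, difference 1.05: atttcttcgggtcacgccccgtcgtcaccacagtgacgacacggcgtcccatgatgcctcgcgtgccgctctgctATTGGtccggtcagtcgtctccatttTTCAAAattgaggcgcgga
Top2a, chr11:99024190-99024309, minus strand, difference 0.94: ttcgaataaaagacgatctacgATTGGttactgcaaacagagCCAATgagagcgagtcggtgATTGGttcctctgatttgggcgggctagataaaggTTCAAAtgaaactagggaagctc
Nusap1, chr2:119618178-119618297, plus strand, difference 1.30: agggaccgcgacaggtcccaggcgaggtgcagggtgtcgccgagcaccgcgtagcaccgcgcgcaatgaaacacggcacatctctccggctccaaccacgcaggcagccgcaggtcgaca
Ccnb2, chr9:70421555-70421674, minus strand, difference 0.06: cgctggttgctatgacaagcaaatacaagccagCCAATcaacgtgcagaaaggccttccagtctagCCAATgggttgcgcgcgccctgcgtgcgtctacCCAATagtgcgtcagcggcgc

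In Ube2c the CHR letters begin 29 bases before the start and the nearest CCAAT letters 57 bases before it, and in Kif11 they begin at 19 and 45. Cdk1 holds TTTGAA at 15 and again at 71 bases before the start, each with CCAAT letters upstream of it. Ccnb2, whose expression barely differed, holds 3 CCAAT boxes at 87, 54 and 21 bases before the start. Its TTTGAA letters lie outside the printed stretch, further upstream and just after the start. The full window of Ccnb2 does hold both sets of letters spaced as described below. So does that of Fbxo5, the other gene whose arrays overlapped. The printed stretch of Nusap1 holds neither set of letters, although its difference is among the largest. Large differences are thus found with and without these letters.

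Windows were matched for 41 of the 47 genes. TTTGAA was in the window of 32 of the 41, or 78%, where 20.2% of all 27025 genes with a window hold it. CCAAT was in 31, or 75.6%, against 41.1% of all genes. With CCAAT beginning 25 to 40 bases upstream of TTTGAA, a spacing chosen after the first positions were seen, there were 14 of 41, or 34.1%, against 0.729% of all genes. The further G2 and mitosis genes described below, which did not set the spacing, held the spaced pair in 3 of 56, or 5.36%, and TTTGAA in 24 of 56, or 42.9%. The median difference was 0.83 for the 32 genes with TTTGAA and 0.67 for the 9 without it, and 0.83 and 0.82 for genes with and without the spaced pair. Of DNA replication and S phase genes, which are known to be driven by E2F factors, 6 of 42, or 14.3%, hold TTTGAA. These matches are letters in a window and do not show binding.

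The other genes of G2 and mitosis were read from a list of 73 further genes, of which 70 were measured. The list includes the transport motors Kif3a and Kif5b, and its Cdc25a is also counted among the DNA replication and S phase genes below. Of the 70, 64 were above 0, beside 52.9% of all genes, and the median difference was 0.43. The positive arrays were both above the negative ones for 60, beside 22.4% of all genes. They were both below for 1, beside 17%. At an unadjusted p under 0.05, 51 were higher and 0 lower, beside 7.07% and 4.64% of all genes. With the mean-variance trend 5 passed the adjusted threshold as higher, beside 0.445% of all genes.

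Among further genes of mitotic entry, the cyclin Ccnf differed by 1.01 (SE 0.18), Cks2, a small subunit of Cdk1 complexes, by 0.62, Mastl, the Greatwall kinase, by 0.52 and Plk4, the kinase of centriole duplication, by 0.46. Pkmyt1, a kinase that inhibits Cdk1, was the gene with arrays apart in the lower direction, at -0.18 (SE 0.09). Of the checkpoint and separase genes, the separase Espl1 differed by 0.80 (SE 0.10), the checkpoint proteins Bub3 and Mad1l1 by 0.50 and 0.57, and the shugoshin Sgo1, which guards centromeric cohesin, by 0.67. Pttg1, the securin that holds separase back, measured 11.54 and 11.35 against 11.51 and 11.53, and its arrays overlapped. Cenpl, a subunit of the constitutive centromere complex, measured 6.61 and 6.65 against 7.60 and 7.67, a difference of 1.0 (SE 0.09). The centromere proteins Cenpi and Cenpq differed by 0.78 and 0.59 and the kinetochore protein Ska3 by 0.54, while Cenpm, at -0.01, overlapped.

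The 6 further kinesins had a median of 0.02. Kif18b, a partner of Kif2c, differed by 1.04 (SE 0.15), Kif14, a kinesin of cytokinesis, by 0.39 and Kif24 by 0.06. Kif15, a spindle motor, measured 4.95 and 4.80 against 4.91 and 4.78, and like the transport motors Kif3a (-0.04, SE 0.11) and Kif5b (-0.06, SE 0.34) it overlapped. The difference of Kif15 was -0.03 (SE 0.11), so no mitotic kinesin of this list was shown to lie below 0. Kif15 and Kif14 both read under 6 log2 units on every array, and so low a level limits what their values show.

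Among spindle and centrosome genes, Tacc3, which Aurka phosphorylates, differed by 0.84 (SE 0.10), Cep55, a midbody protein, by 0.79, Gtse1 by 0.81 and the centriole protein Stil by 0.75, with Kif2a lowest at 0.08. The further cytokinesis genes had a median of 0.87. Depdc1b measured 8.22 and 8.0 against 9.38 and 9.27, a difference of 1.21 (SE 0.12), followed by Pimreg at 1.14 (SE 0.13), Depdc1a at 1.0 (SE 0.10) and Arhgap11a, a GTPase-activating protein, at 0.74, with Cit, the citron kinase, lowest at 0.24. Of the condensin list, the core subunits Smc4 and Smc2 differed by 0.46 and 0.52, Ncapg2 by 0.35 and Ncapd2 by 0.34, while Ncaph2 overlapped at -0.09.

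Factors known to control genes of this kind were read as well. Over 23 factors of the DREAM, MuvB, E2F, Myb and NF-Y families and Foxm1, the median difference was 0.11. At an unadjusted p under 0.05, 6 were higher and 1 lower, beside 7.07% and 4.64% of all genes. The contrast with the 47 genes was not tested. Foxm1, the activator of G2 genes, measured 7.21 and 7.13 against 7.54 and 7.60, a difference of 0.40 (SE 0.09). Lin54, the subunit that binds the CHR, measured 9.0 and 8.96 against 9.40 and 9.53, a difference of 0.49 (SE 0.10). The repressors E2f8 and E2f7 differed by 0.46 and 0.30, Lin9 by 0.34 and Rbl1 by 0.32, while Lin52, another MuvB subunit, lay lower at -0.29 (SE 0.10). Mybl2, or B-Myb, measured 7.92 and 7.54 against 7.96 and 7.73, with overlapping arrays.

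The rest of the cell cycle machinery was read beside them. The core subunits of the anaphase-promoting complex, which are needed in every division, were listed together with its activator Fzr1. These 13 genes had a median of 0.11. At an unadjusted p under 0.05, 2 of 13 were higher and 0 lower, beside 7.07% and 4.64% of all genes. The 2 higher were Anapc10, at 0.28, and the activator Fzr1, or Cdh1, at 0.41. Cdc23 followed at 0.18 and Cdc27 at 0.17, and Anapc4 was lowest at -0.08. Cohesin and its regulators had a median of 0.17, with 2 of 12 higher and 0 lower, beside the same shares of all genes. The 2 higher in this list were Esco2, which acetylates cohesin in S phase, at 0.79 (SE 0.09), and Cdca5, or sororin, at 0.69 (SE 0.11). Rad21, the cleavable cohesin subunit, and Esco1 differed by 0.21 and 0.20, and Pds5a was lowest at -0.35 with overlapping arrays.

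DNA replication and S phase genes had a median of 0.01, the value over all genes. At an unadjusted p under 0.05, 4 of 52 were higher and 2 lower, shares near the 7.07% and 4.64% of all genes. In the higher direction 21 of the 52 had arrays apart, above the 22.4% of all genes, and in the lower 9 did, near the 17%. Their summed linear signal lay between 108486 and 110994 on the 4 arrays, so replication transcripts as a whole were near level where the mitotic ones were not. Pcna, the sliding clamp, measured 13.49 and 13.60 against 13.52 and 13.56. The helicase subunit Mcm6 measured 12.14 and 12.19 against 11.89 and 11.79, a difference of -0.33 (SE 0.09), and Ung, a uracil glycosylase, was lowest at -0.78 (SE 0.11). Cdc45, which completes the helicase, was highest at 0.41 (SE 0.09), and Rfc4, of the clamp loader, differed by 0.30. The difference between this list and the mitotic genes was not tested as such.

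Among G1 cyclins, CDKs and CDK inhibitors the median was 0.15. At an unadjusted p under 0.05, 2 of 17 were higher and 2 lower, beside 7.07% and 4.64% of all genes. Ccnd2, a D-type cyclin, measured 11.36 and 11.57 against 10.56 and 10.66, a difference of -0.86 (SE 0.11), and was the member of this list that fell with the mean-variance trend. Cdkn2d, the CDK4 inhibitor p19, measured 8.01 and 7.81 against 8.81 and 8.66, a difference of 0.83 (SE 0.12). Ccng1, a target of p53, differed by 0.36 and Btg2, an antiproliferative gene, by -0.41. Cdkn1a and Cdkn1b, the inhibitors p21 and p27, differed by 0.18 and 0.00 and did not reach an unadjusted p of 0.05.

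**Figure D4:**
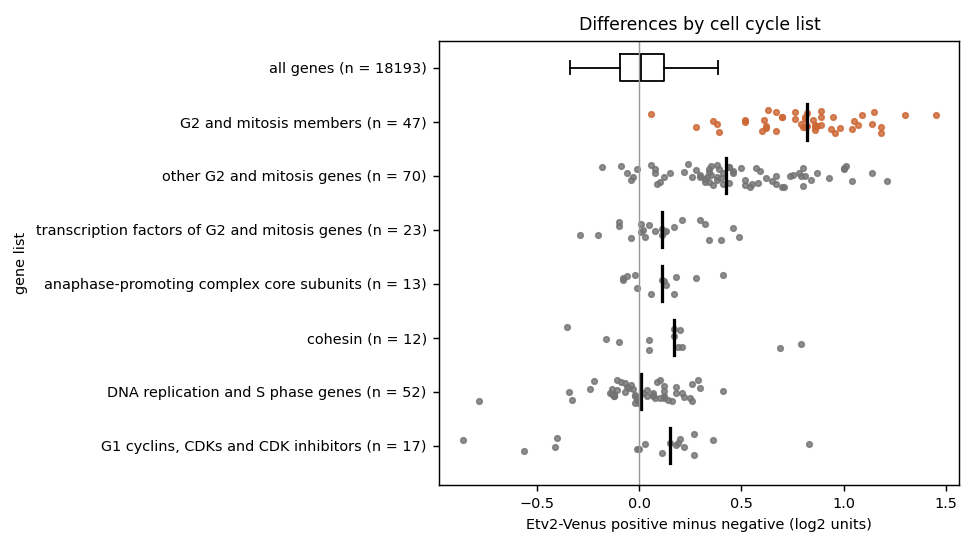
Etv2-Venus positive minus negative in log2 units (x axis) by gene list (y axis); each point is 1 gene, black bars are list medians, and the box shows the quartiles, with whiskers at percentiles 5 and 95, of all 18193 genes. The G2 and mitosis genes centre on 0.82 and the further G2 and mitosis genes on 0.43, while DNA replication genes centre on 0.01.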

How the data were processed

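The authors deposited log2 values for each probe set, computed with RMA (R 2.8.0, per the submitters' processing notes). Base 2 was inferred from their range, 2.16 to 14.93. RMA makes arrays comparable and removes any shift common to all genes. Scanner files were not used here. Array medians were 5.46 to 5.52, and the number of arrays limits the precision.

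Groups came from the sample titles. Of 45101 probe sets, 64 were controls; of the rest, 34945 had 1 symbol, 932 had several, and the annotation used does not list 9160. Counting controls that carry a symbol, Entrez identifiers of 34754 of 34958 matched RefSeq (GRCm38.p6, used for names and promoters), and 0 symbols changed. The highest mean chose 1 probe set per gene, giving 18193 genes.

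Differences were fitted in limma 3.58.1 (R 4.3.3; lmFit, eBayes, two-sided), with no term but the group, 2 residual and 2.68 prior degrees of freedom, and Benjamini-Hochberg adjustment over all genes. The script was tested on simulated data. Members and lists were chosen with earlier results of these data known, so their counts are descriptions and not independent support. Per role, the 3 genes of smallest p and the one of lowest difference are given in full, and of each role of the other lists up to 4 of smallest p and the lowest are named. Further genes and single probe sets named in the text, such as E2f7, Rbl1, Mybl2, Pcna, Kif15, Cdkn1a and Cdkn1b, were chosen after their values were seen.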

Additional observations from a re-analysis of the deposited data

How the results depend on the processing

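Alternatives took the mean of all probe sets of a gene, genes whose mean reached 6, trend with robust estimation, a repeated quantile normalization and median-centred arrays. Others took a block for the array number and left out each array. In another, every probe set was fitted, but the one used above was still read for each gene. Among the unused probe sets, 1 each of Kif18a, Racgap1 and Tpx2, with means under 6, gave -0.04, -0.03 and -0.11. The 47 genes had a difference above 0 in every alternative, except that 46 did without array 2 of the positive cells. There Fbxo5 turned to -0.05, and over the arrays left out in turn Fbxo5 ran from -0.05 to 0.61. The median of the 47 genes ran from 0.67, with the mean over probe sets, to 0.92, without array 1 of the negative cells. Trend with robust estimation, the block, the limit at 6, which all 47 passed, and the fit of every probe set cannot change a gene's difference here. Their equal signs, median of 0.82 and 45 genes with arrays apart were therefore fixed in advance. With all arrays kept, between 41 and 46 were higher at an unadjusted p under 0.05, and 42 to 46 had arrays apart. In the main comparison 7.07% of all genes were higher at that p, and 22.4% had arrays apart that way. These shares were not counted under the alternatives. Without any one array, 46 had arrays apart. There 1 array stands against 2, which lie apart more easily by chance, so that count is not comparable with the others.

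The number that passed the adjusted threshold of 0.05 in limma did depend on the setting, and the cause was not tested. It was 0 in the main comparison, with the mean over probe sets, with every probe set and without any one array (0 to 0). It was 7 among genes whose mean reached 6, 12 with trend and robust estimation, 11 after the repeated quantile normalization and 26 with centred arrays; the share of all genes higher was then 0.648%, 0.445%, 0.506% and 1.04%. The labels do not say that equal array numbers pair the arrays, whose deviations correlated at 0.54 over genes. With the array number as a block 0 passed, and with the block and the trend together 41 did, against 3.39% of all genes. With an array left out, 1 arm has 1 array, which is assumed to vary like the other.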

Other observations

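Genes in none of the cell cycle lists whose promoter window holds CCAAT beginning 25 to 40 bases upstream of TTTGAA numbered 58. Their median difference between the populations was 0.05, with 39 of 58 above 0 and 7 higher at an unadjusted p under 0.05. Among the 14206 genes in no cell cycle list without that pair, the median was 0.01, with 7516 above 0 and 890 higher. This look was chosen after the values were seen and was not tested.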
